A study of Bos taurus with 6 samples.

Results

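The genes described here are 49 genes of the antioxidant, glutathione and thioredoxin systems, measured in blood cells of heifers before and after severe cold. They were taken by gene symbol and not by their values: the regulators NFE2L2 and KEAP1, superoxide dismutases, catalase, glutathione peroxidases, peroxiredoxins, thioredoxins and thioredoxin-domain proteins, glutathione synthesis enzymes and transferases, glutaredoxins, haem oxygenases, quinone reductases, ferritin, metallothionein and methionine sulfoxide reductases. They are 49 of the 6337 genes that the platform annotation ties to a probe set by a single symbol, and 61 of the 12763 probe sets measured them. A gene with several probe sets is represented by the set with the highest mean over the arrays, and 9 of the 49 had more than 1. TXNIP, GCLC, GSTP1 and NQO1, which belong to the same systems, are not analysed here.

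The animals were female Sanhe cattle, a breed that the labels name without a genotype, semi-housed and fed a total mixed ration. The 3 arrays after cold are numbered 1, 2 and 3, and their animals had spent 3 hours outdoors at -32 °C and then 15 hours in a cowshed at 5 °C. The 3 arrays before cold are numbered 4, 5 and 6, and their animals had had no such exposure. Per the design text the 6 RNA samples came from 3 animals of a herd of 30, each sampled at both times, but the labels do not say which arrays share an animal, when the later blood was drawn, or the animals' age in numbers. The samples are labelled as white blood cells. They also gave signal for HBB, the beta globin of red cells (11.7 to 12.3 on the log2 scale), and PF4, a platelet chemokine (12.4 to 12.8). In such bulk RNA, fewer cells of a type and less RNA per cell cannot be told apart.

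Cells remove superoxide with the dismutases and the resulting hydrogen peroxide with catalase, glutathione peroxidases and peroxiredoxins. The peroxidases draw their electrons from glutathione or thioredoxin, which glutathione reductase and thioredoxin reductase return to the reduced state with NADPH. NRF2, the product of NFE2L2, switches on many of these genes when its inhibitor KEAP1 is oxidised, and phagocytic white blood cells, which make superoxide on purpose to kill microbes, rely on them for their own protection.

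None of the 49 genes differed between blood cells after and before cold beyond the spread between arrays. NFE2L2, TXNDC12 and MGST2 had the lowest means after cold relative to before, and TXNRD2 and GSTT1 the highest, but each difference was within 2 standard errors (SE) of 0. Values are log2 intensities throughout, and a difference is the mean after cold minus the mean before it, so that 1 stands for 2-fold. With limma, 0 of the 49 passed an adjusted p of 0.05, where 0% of all 12763 probe sets did, and the smallest adjusted p among the 49 was 1.00. The share with an unadjusted p under 0.05 was 0 of the 49 and 0.494% of all probe sets, and the smallest unadjusted p was 0.113, for TXNDC12. By size alone, 0 of the 49 and 7.04% of all probe sets reached 1.5-fold in either direction. These values for the 49 rest on the brightest probe set of each gene, whereas the shares cover all probe sets, dim ones included. Among the probe sets not chosen, one of PRDX6 was at -0.85 ± 0.55, past 1.5-fold. One of PRDX3 had an unadjusted p of 0.0936 in limma. The model takes the 6 arrays as separate although, per the design text, each shares an animal with another array. Its SEs, intervals and p-values therefore measure the spread between these arrays, with differences between animals included. Fits with each possible matching as a block are given below. With 3 arrays against 3, an exact permutation test that takes the arrays as unpaired cannot give a p below 0.1. One that keeps the pairs of an animal together has fewer rearrangements and a higher limit.

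The differences were small and went both ways. They ran from -0.54 to 0.33, with a median SE of 0.31. A higher mean after cold was found in 28 of the 49 genes (57.1%) and a lower mean in 21, and over all 6337 genes the share with a higher mean was 56.3%. The median difference was 0.055 over the 49 and 0.046 over all genes, and the median size without sign was 0.15 and 0.19. Without the before 6 array, 17 of the 49 had a higher mean and the median was -0.089. The array values after and before cold did not overlap in 2 of the 49 genes (4.08%), against 4.38% of all probe sets. The 95% intervals of all 49 differences included 0, and in 32 genes the interval excluded a 2-fold difference in either direction.

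**Figure D1:**
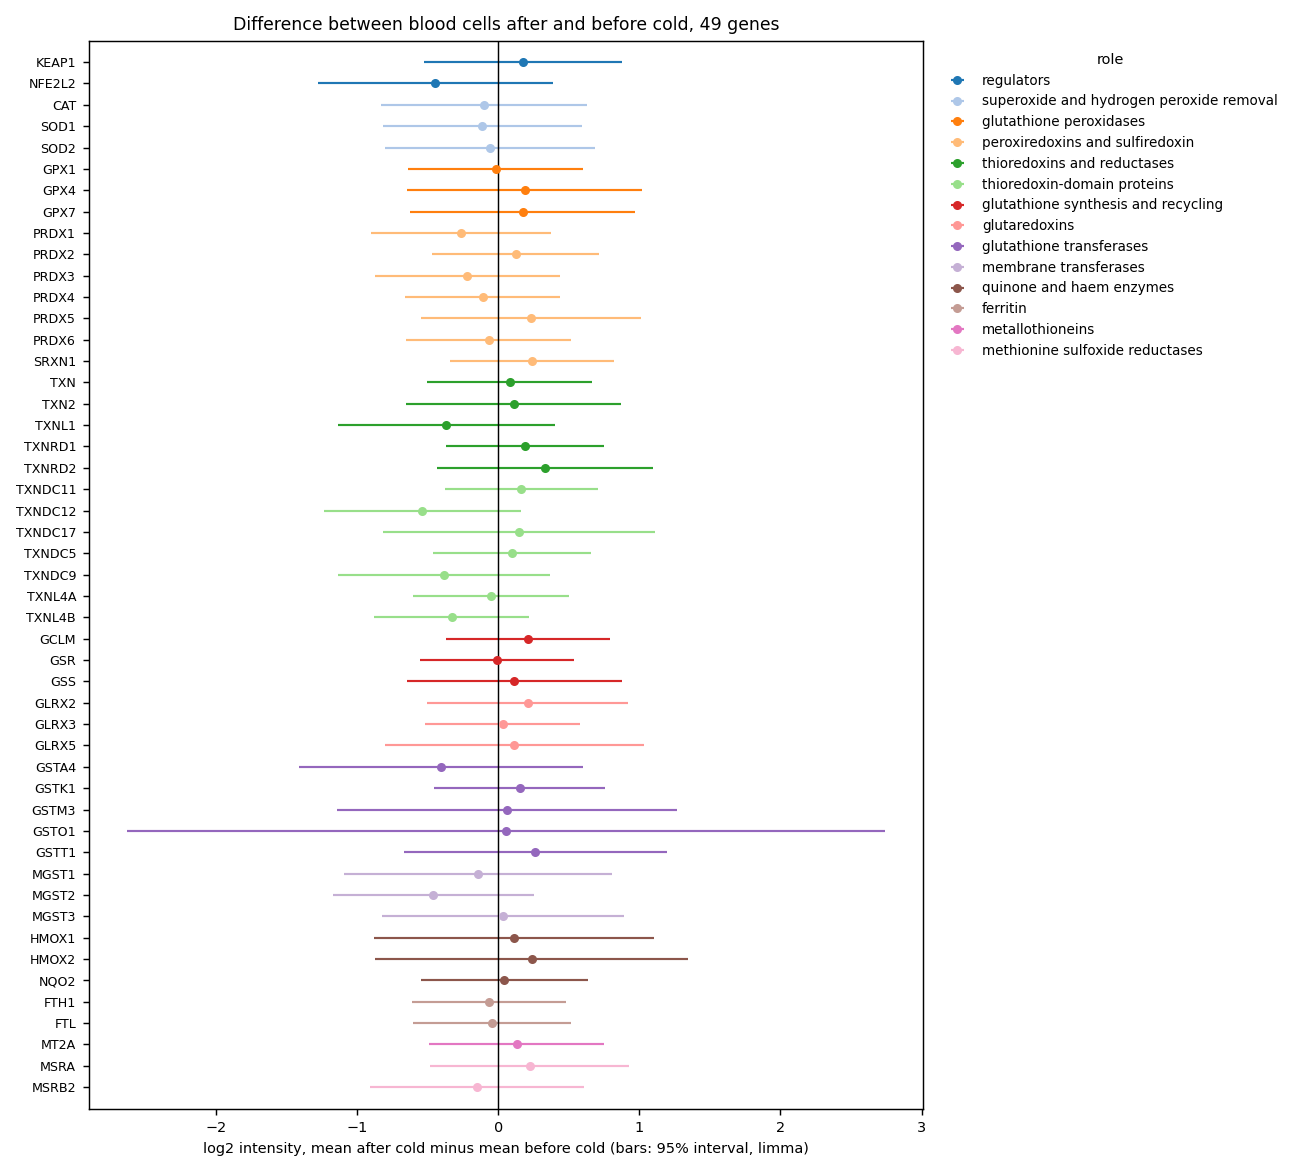
Difference of the mean log2 intensity after minus before cold (x axis) for each of the 49 genes (y axis), with the 95% interval of the limma model as bars and the role of the gene as colour, 3 arrays in each group. The points lie between -0.54 and 0.33, every interval crosses 0, and GSTO1 has the widest, from -2.63 to 2.74.

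The 2 regulators stood on opposite sides of 0. NFE2L2 was at 7.94, 9.11 and 8.28 on the after 1, 2 and 3 arrays and at 8.49, 9.02 and 9.15 on the before 4, 5 and 6 arrays. After 1 and after 3 were the lowest arrays, while after 2 lay with the highest ones, so the groups overlapped. The difference was -0.45 ± 0.36 (SE), with a 95% interval from -1.28 to 0.39. Without the after 2 array it was -0.78 ± 0.31, with an unadjusted p of 0.0325 and an adjusted p of 0.315 in limma. In that fit 14.0% of all probe sets had an unadjusted p under 0.05. Leaving out any other single array gave NFE2L2 differences from -0.64 to -0.19, with unadjusted p of 0.171 to 0.642 in limma. With array weights the NFE2L2 difference was 0.02 ± 0.38. Those weights ran from 0.0019 on after 1 to 30.7 on before 4, so that values with array weights rest almost wholly on after 2 and after 3 in the after group and mostly on before 4 in the other. KEAP1, the adaptor that marks NRF2 for breakdown, was at 8.73, 8.32 and 9.04 after cold and at 8.56, 8.85 and 8.15 before. The groups overlapped, with after 3 above all before arrays and before 6 below all after arrays, and the difference was 0.18 ± 0.31. Its other 2 probe sets gave 0.19 ± 0.31 and 0.22 ± 0.34, with the same order of high and low arrays at the extremes: after 3 highest, and after 2 and before 6 lowest.

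Superoxide and hydrogen peroxide removal was represented by 3 genes, each with a slightly lower mean after cold. SOD1, the copper and zinc dismutase of the cytosol, was at 12.23, 12.20 and 11.37 after cold and at 12.16, 11.89 and 12.09 before. The after 3 array alone was low, and the others lay within 0.34 of each other. The difference was -0.11 ± 0.31 (SE). SOD2, the manganese dismutase of mitochondria, was at 9.98, 10.41 and 9.46 after cold and at 10.15, 9.66 and 10.22 before, a difference of -0.06 ± 0.32. CAT, catalase, was at 9.90, 10.69 and 10.36 after cold and at 10.49, 10.01 and 10.75 before, a difference of -0.10 ± 0.32. SOD2 and CAT were both highest on the after 2 and before 6 arrays. Without the after 3 array 2 of the 3 genes stood higher after cold and their median difference was 0.17.

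Of the 3 glutathione peroxidases, which reduce peroxides with glutathione, 2 had a higher mean after cold. GPX1, the selenium-containing peroxidase of the cytosol, was at 12.68, 12.40 and 12.92 after cold and at 12.72, 12.90 and 12.44 before. Both groups had a low, a middle and a high array at close levels, and the difference was -0.02 ± 0.27 (SE). It was 0.02 with median centring and with cyclic loess normalization, and a second, dimmer probe set gave 0.28 ± 0.29. GPX4, which reduces lipid peroxides within membranes, was at 9.86, 8.86 and 9.79 after cold and at 9.50, 9.60 and 8.84 before. Here too after 2 and before 6 were the low arrays, and the difference was 0.19 ± 0.36. GPX7, a peroxidase of the endoplasmic reticulum, differed by 0.17 ± 0.35.

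The 6 peroxiredoxins and sulfiredoxin had 3 higher and 4 lower means, with differences from -0.27 to 0.24. PRDX1, a cytosolic peroxiredoxin reduced by thioredoxin, was at 11.39, 11.26 and 10.72 after cold and at 11.45, 11.50 and 11.21 before. Its after 3 array was the lowest by 0.49, the rest lay close together, and the difference was -0.27 ± 0.28 (SE). PRDX2, the peroxiredoxin known for its abundance in red cells, was at 10.75, 10.41 and 10.77 after cold and at 10.71, 10.55 and 10.30 before, a difference of 0.12 ± 0.26. SRXN1, sulfiredoxin, which repairs over-oxidised peroxiredoxins and is a known NRF2 target, was at 8.37, 8.24 and 8.52 after cold and at 8.38, 8.08 and 7.97 before, a difference of 0.24 ± 0.25. For both genes the groups overlapped. The mitochondrial PRDX3 differed by -0.22 ± 0.28, and a second probe set of it gave -0.58 ± 0.31. PRDX5 differed by 0.23 ± 0.34 and the endoplasmic reticulum form PRDX4 by -0.11 ± 0.24. PRDX6 differed by -0.07 ± 0.26 on the probe set chosen, and by -0.32 ± 0.29 and -0.85 ± 0.55 on its dimmer ones.

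Among thioredoxins and their reductases, 4 of 5 genes stood higher after cold and the median difference was 0.11. Without the after 1 array it was 2 of 5, with a median of -0.0096. TXN, cytosolic thioredoxin, was at 11.60, 11.13 and 11.20 after cold and at 11.13, 11.32 and 11.24 before. After 1 was the highest array and the rest lay within 0.20 of each other, for a difference of 0.08 ± 0.26 (SE). TXNRD1, the cytosolic thioredoxin reductase and an NRF2 target, was at 10.18, 10.37 and 10.28 after cold and at 10.21, 9.89 and 10.16 before. The groups overlapped only in that after 1 lay below before 4, and the difference was 0.19 ± 0.24. TXNRD2, the mitochondrial reductase, was at 6.63, 6.16 and 6.97 after cold and at 6.51, 6.52 and 5.75 before. Its difference of 0.33 ± 0.33 was the highest among the 49 genes, with after 2 inside the range of the before arrays. TXNL1, a thioredoxin-like protein bound to the proteasome, was at 7.57, 8.27 and 7.25 after cold and at 7.71, 8.16 and 8.32 before. After 2 lay among the high arrays as it did for NFE2L2, and the difference was -0.37 ± 0.34. TXN2, mitochondrial thioredoxin, differed by 0.11 ± 0.33.

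The thioredoxin-domain proteins held the lowest difference and both genes without overlap. TXNDC12, a thioredoxin-like protein of the endoplasmic reticulum, was at 7.59, 7.39 and 7.02 after cold and at 8.25, 7.91 and 7.46 before. Only before 6 lay within the range of the after arrays, and the difference was -0.54 ± 0.30 (SE), with a 95% interval from -1.24 to 0.16 and an unadjusted p of 0.113. TXNL4B, a pre-mRNA splicing factor with a thioredoxin fold, was at 6.98, 7.17 and 7.08 after cold and at 7.43, 7.52 and 7.26 before. All arrays after cold lay below all arrays before it, the nearest by 0.09, and the difference was -0.33 ± 0.24. TXNDC11 was at 7.36, 7.44 and 7.56 after cold and at 7.24, 7.32 and 7.31 before, so that all arrays after cold lay above those before, the nearest by 0.04. Its difference was 0.16 ± 0.24. This gene was not among those whose array values were to be given whatever they were, and it is named for the lack of overlap.

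TXNDC9, which works with the chaperonin of actin and tubulin, was at 8.92, 8.61 and 8.14 after cold and at 8.55, 9.39 and 8.87 before. The groups overlapped, with before 5 highest and after 3 lowest, and the difference was -0.38 ± 0.33 (SE). TXNDC17, TXNDC5 and TXNL4A differed by 0.15 ± 0.42, 0.10 ± 0.24 and -0.05 ± 0.24. TXNL4B and TXNDC11 were the 2 genes behind the 4.08% above. Quantile or cyclic loess normalization left 0 of the 49 without overlap, against 5.12% of all probe sets in each.

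Glutathione synthesis and recycling was represented by GCLM, GSS and GSR. GCLM, the modifier subunit of the enzyme that starts glutathione synthesis and a known NRF2 target, was at 5.95, 5.89 and 5.92 after cold and at 5.48, 5.66 and 5.98 before. The after arrays lay within 0.06 of each other, inside the wider range of the before arrays, and the difference was 0.21 ± 0.25 (SE). GSR, glutathione reductase, was at 8.28, 8.08 and 8.28 after cold and at 8.17, 8.30 and 8.18 before. It had the narrowest range of all 49 genes, 0.22 over the 6 arrays, and a difference of -0.01 ± 0.24, which was 0.03, 0.01 and 0.02 with median centring, quantile and cyclic loess normalization. GSS, glutathione synthetase, differed by 0.11 ± 0.33.

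All 3 glutaredoxins had a higher mean after cold, by 0.03 to 0.21. GLRX2, a mitochondrial form, was at 9.51, 8.68 and 9.14 after cold and at 8.89, 9.21 and 8.60 before. The lowest arrays were after 2 and before 6, the groups overlapped, and the difference was 0.21 ± 0.31 (SE). GLRX5, which serves iron-sulfur cluster assembly, differed by 0.11 ± 0.40 and GLRX3 by 0.03 ± 0.24. The mean of both probe sets of GLRX3 gave -0.02, and with array weights 2 of the 3 glutaredoxins had a higher mean.

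The glutathione transferases, which join glutathione to reactive compounds, varied between arrays more than any other role. The median range over the 6 arrays, highest minus lowest, was 1.71 for these 5 genes, 0.89 for the 49 and 0.98 over all 6337 genes. GSTO1, GSTM3 and GSTT1 were among the dimmest 50% of probe sets. The 2 brighter genes, GSTA4 and GSTK1, had ranges of 1.71 and 0.58. GSTO1, the omega class transferase, was at 8.03, 7.86 and 4.09 after cold and at 7.67, 4.53 and 7.61 before. It thus had a pair of low arrays, after 3 and before 5, and 4 high ones, with a gap of 3.07 between them and a low array in each group. The range of 3.93 was the widest of the 49. The difference between groups was 0.05 ± 1.17 (SE), with a 95% interval from -2.63 to 2.74. Without the 2 low arrays, a choice made after the data were seen, it was 0.30 ± 0.28, with an unadjusted p of 0.325. One probe set measured this gene.

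GSTO1, GSTM3 and GSTT1 were outside the rule for array values and are given because of their wide ranges, a choice made after the values were seen. GSTM3, a mu class transferase, was at 7.44, 5.71 and 5.69 after cold and at 6.82, 6.24 and 5.60 before. After 1 and before 4 were the high arrays, above the next by 0.58, and the difference between groups was 0.06 ± 0.53 (SE). GSTT1, of the theta class, was at 6.87, 5.61 and 6.66 after cold and at 6.51, 6.27 and 5.58 before, with after 2 and before 6 lowest and a difference of 0.26 ± 0.41. GSTA4, an alpha class transferase active on lipid peroxidation products, was at 6.50, 7.93 and 7.58 after cold and at 7.14, 8.21 and 7.89 before. After 1 and before 4 were the low arrays here, the reverse of GSTM3, and the difference was -0.41 ± 0.44. GSTK1 differed by 0.15 ± 0.26, with its other probe sets at 0.08 ± 0.27 and -0.21 ± 0.45. The last of these was lowest on after 3 and before 5 (5.19 and 5.25, against 5.96 to 6.79 on the other arrays), which the probe set chosen for GSTK1 was not.

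The membrane-bound transferases had 1 higher and 2 lower means after cold. MGST2 was at 6.31, 6.51 and 6.13 after cold and at 6.96, 7.14 and 6.23 before. As for TXNDC12, only before 6 lay within the range of the after arrays, and the difference was -0.46 ± 0.31 (SE), with an unadjusted p of 0.175. After 2 minus before 6 was 0.28 for MGST2. After 1 minus before 4 was -0.65 and after 3 minus before 5 was -1.01. Leaving out after 2 and before 6 together, also a choice made after the data were seen, removed both the overlap and the positive pair. No conclusion is drawn from that fit, where the groups did not overlap in 45.2% of all probe sets. In it the MGST2 difference was -0.83 ± 0.25. Its unadjusted p was 0.0135 and its adjusted p 0.492 in limma, in a fit where 9.67% of all probe sets had an unadjusted p under 0.05. MGST1 differed by -0.14 ± 0.41 and MGST3 by 0.04 ± 0.37, both lowest on after 2 and before 6.

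**Figure D2:**
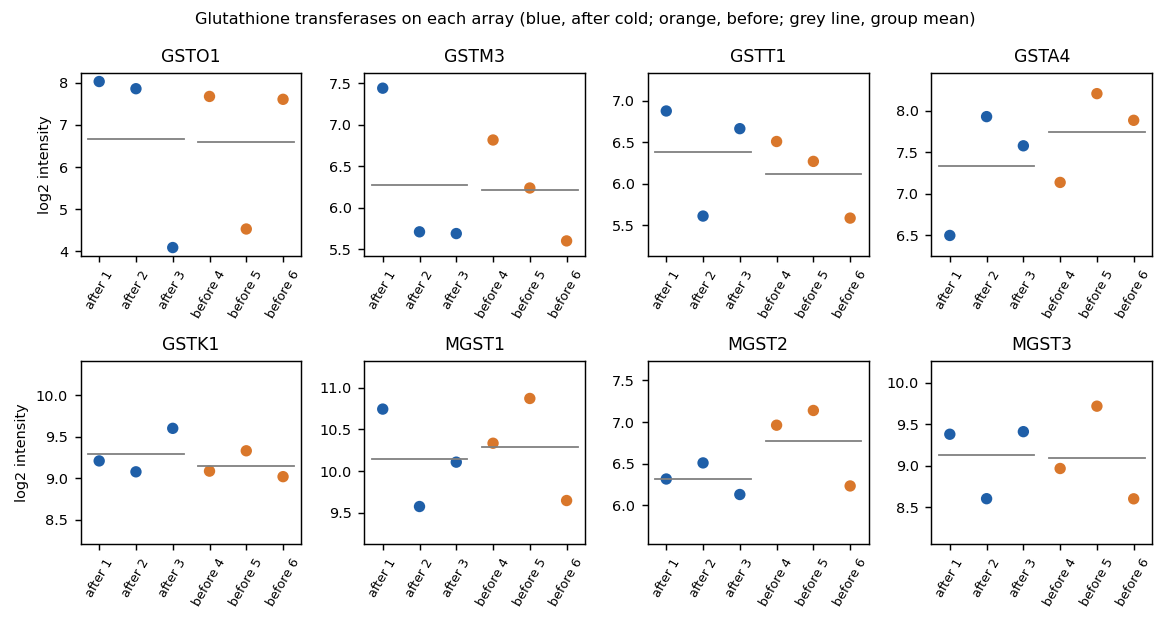
Log2 intensity (y axis, scaled for each gene) of the soluble and membrane-bound glutathione transferases on the 6 arrays (x axis), after cold in blue and before in orange, with a grey line at each group's mean over 3 arrays. GSTO1 is low on after 3 and before 5 (4.09 and 4.53) and between 7.61 and 8.03 elsewhere, while GSTM3 is highest on after 1 and before 4 (7.44 and 6.82).

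The 3 quinone and haem enzymes had higher means after cold by 0.04 to 0.24, none of them past the threshold. HMOX1, the inducible haem oxygenase and a classical NRF2 target, was at 7.91, 7.53 and 8.86 after cold and at 7.86, 8.64 and 7.47 before. It was high on after 3 and before 5 and the groups overlapped, for a difference of 0.11 ± 0.43 (SE). HMOX2, the constitutive haem oxygenase, was at 7.36, 6.22 and 7.92 after cold and at 7.32, 7.23 and 6.23 before. After 2 and before 6 lay about 1 unit below the others, and the difference was 0.24 ± 0.48. The quinone reductase NQO2 differed by 0.04 ± 0.26, and its second probe set by 0.07 ± 0.29. Without the after 3 array none of the 3 enzymes had a higher mean (median -0.14), nor without the before 6 array (median -0.11).

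Ferritin, which stores iron and keeps it from feeding radical reactions, was among the steadiest. FTH1, the heavy chain, was at 13.34, 13.45 and 13.55 after cold and at 13.42, 13.57 and 13.53 before. All arrays lay within 0.24 of each other, and the difference was -0.07 ± 0.24 (SE). FTL, the light chain, differed by -0.05 ± 0.24. With array weights 1 of these 2 had a lower mean. MT2A, a metallothionein that binds zinc and copper, was at 7.71, 7.45 and 7.91 after cold and at 7.59, 7.81 and 7.29 before, a difference of 0.13 ± 0.27. MSRA, which repairs oxidised methionine, was at 8.05, 7.69 and 8.57 after cold and at 7.94, 8.09 and 7.60 before. It was lowest on after 2 and before 6 and differed by 0.22 ± 0.31, and its mitochondrial counterpart MSRB2 differed by -0.15 ± 0.33.

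The counts of higher means in the remaining roles also turned on single arrays. Without before 6, 1 of 3 glutathione peroxidases (median -0.05), 2 of 5 soluble transferases (median -0.0055) and 1 of 3 genes of glutathione synthesis and recycling (median -0.03) had a higher mean. Without after 2, 2 of 3 membrane-bound transferases had one (median 0.14), and without after 3, 4 of 7 thioredoxin-domain proteins (median 0.02) and 0 of 2 methionine sulfoxide reductases (median -0.14). Without before 4, 4 of 7 peroxiredoxins and sulfiredoxin had one (median 0.08).

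Many of these genes had their extreme values on the same arrays, often 1 from each group. In 22 of the 49 genes (44.9%) the 2 lowest arrays were after 2 and before 6, which was so in 36.9% of all 6337 genes. Among the 22 were GPX1, GPX4, PRDX2, PRDX5, TXN2, TXNRD2, GSTT1, MGST1, HMOX1, HMOX2 and KEAP1. In 12 genes (24.5%, against 15.4% of all genes) the 2 highest arrays were after 3 and before 5, among them GPX1, GLRX5, HMOX1, KEAP1, FTL and FTH1. NFE2L2, CAT, SOD2, TXNL1 and TXNDC5 went the other way and were highest on after 2 and before 6, which makes 5 of the 49 (10.2%) against 25.5% of all genes. After 1 and after 3, a pair from a single group, were the 2 lowest arrays in 3 of the 49 (6.12%, against 20.01% of all genes) and the 2 highest in 7 (14.3%, against 21.1%). The median deviation of the 49 genes from their own means was 0.09, -0.14 and 0.10 on after 1, 2 and 3 and 0.07, 0.14 and -0.15 on before 4, 5 and 6. Over all genes the same medians were 0.04, -0.03, 0.03, 0.04, 0.05 and -0.06.

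**Figure D3:**
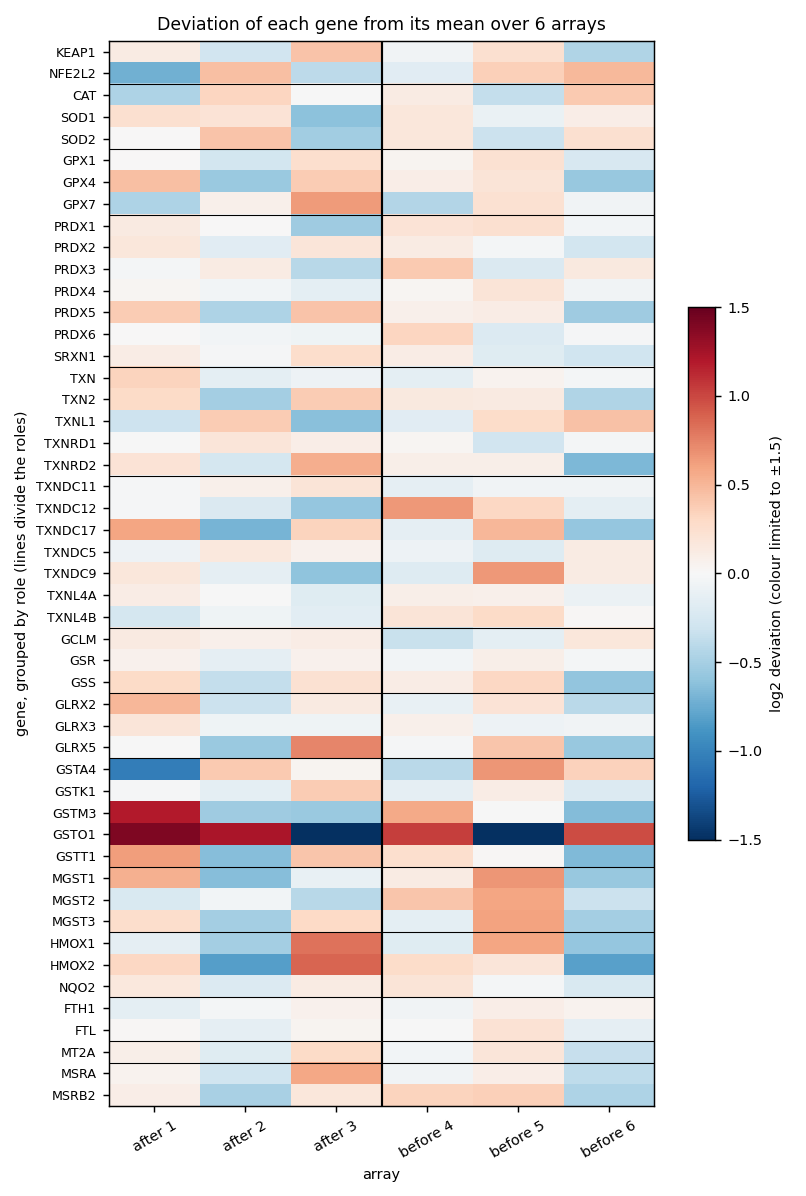
Deviation of the log2 intensity of each of the 49 genes (rows, grouped by role) from its own mean over the 6 arrays (columns; 3 after cold left of the thick line, 3 before right of it), in red where higher and in blue where lower. The after 2 and before 6 columns resemble each other across groups, and GSTO1 is the row with a deep blue on after 3 and before 5.

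Arrays of different groups were in some cases closer to each other than arrays of a single group. Over the 49 genes, the mean absolute difference between 2 arrays was 0.10 for after 2 and before 6, where no gene differed by over 2-fold and TXNRD2 differed most, by 0.41. It was 0.25 for after 1 and before 4, again with 0 genes over 2-fold, and 0.36 for after 3 and before 5, with 2 genes over 2-fold. The other 12 pairs of arrays had values from 0.37 to 0.62, with 2 to 8 genes over 2-fold. Within the after group, after 2 and after 3 differed by 0.60. Without GSTO1 the value for after 3 and before 5 was still 0.36, but it was no longer the third smallest, as before 4 and before 5 were at 0.31 and after 1 and before 5 at 0.33. Over all 6337 genes, after 2 and before 6 (0.13) and after 1 and before 4 (0.24) were again the closest, and after 3 and before 5 were at 0.51.

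**Figure D4:**
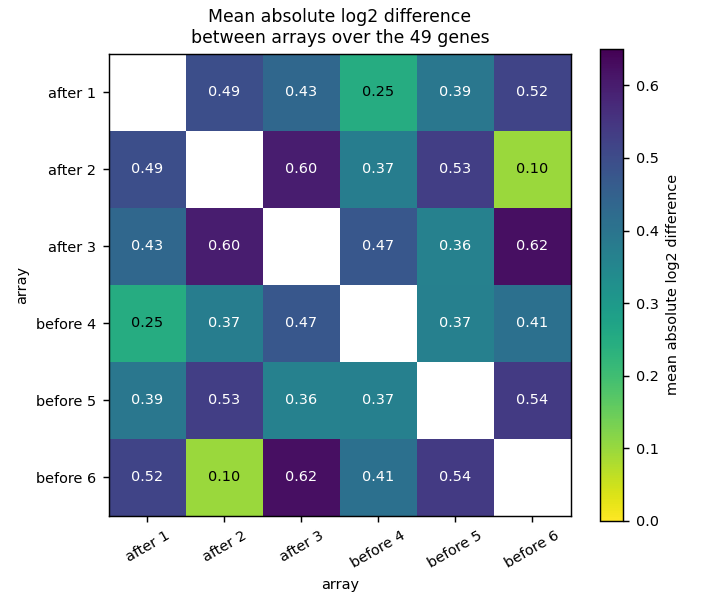
Mean absolute log2 difference between each pair of the 6 arrays (both axes) over the 49 genes, printed in each cell and shown as colour. After 2 and before 6 have the smallest value (0.10) and after 3 and before 6 the largest (0.62).

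Since each animal gave blood at both times, each of the 6 ways to match after with before arrays was also fitted as a block. No gene of the 49 passed an adjusted p of 0.05 under any of them. Matching 1-4, 2-6 and 3-5 gave 2 of the 49 an unadjusted p under 0.05, against 9.15% of all probe sets, and the other 5 matchings gave 0. These were TXNDC12 (-0.54 ± 0.20 SE, unadjusted p = 0.0309) and NFE2L2 (-0.45 ± 0.19, unadjusted p = 0.0493), each with an adjusted p of 0.492 in limma. Within this matching the TXNDC12 differences were -0.66, -0.07 and -0.89, and those of NFE2L2 -0.55, -0.04 and -0.74. The 3 differences were of the same sign in 20 of the 49 genes (40.8%), against 41.0% of all genes, with 13 higher and 7 lower after cold. Which matching is the true one is not given in the labels. The pairs 1-4, 2-6 and 3-5 were the only ones with probe sets low on both arrays by at least 2 log2 units. There were 5, 5 and 11 of them, described under the other observations. Whether the arrays of these pairs share an animal was not tested.

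Other genes of the same pathway, 67 in 6 lists of which 41 were measured, did not pass the threshold either. With limma 0 of the 41 had an adjusted p under 0.05 and 0 an unadjusted one, 27 had a higher and 14 a lower mean, and the median difference was 0.09. The groups did not overlap in 4 (9.76%, against 4.38% of all probe sets). Of NRF2 partners, 3 of 4 had a higher mean (median 0.14). MAFG, a small Maf protein that binds DNA together with NRF2, was at 9.98, 9.98 and 10.25 after cold and at 9.87, 9.79 and 9.80 before, a difference of 0.25 ± 0.24 (SE) without overlap. PARK7, a redox-sensitive protective protein, was at 10.90, 10.96 and 9.81 after cold and at 11.18, 11.13 and 11.01 before. Its groups did not overlap, after 3 was far below the rest, and the difference was -0.55 ± 0.35.

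Of the enzymes that supply NADPH, 6 of 8 had a higher mean (median 0.06), MTHFD1 without overlap at 0.30 ± 0.24 (SE). Selenoproteins and their synthesis had 7 of 11 higher (median 0.17). SEPHS1, a relative of the enzyme that makes selenophosphate, was at 6.92, 6.90 and 6.88 after cold and at 6.76, 6.61 and 6.47 before, without overlap, at 0.29 ± 0.24. Glutathione transport and turnover had 3 of 5 higher (median 0.10). There GLO1, glyoxalase, which clears methylglyoxal with glutathione, was at 6.58, 7.92 and 6.52 after cold and between 7.46 and 8.06 before, a difference of -0.83 ± 0.42 with after 2 inside the before range. The superoxide-producing NADPH oxidase had 5 of 6 higher (median 0.14), with its membrane subunits CYBB at -0.33 ± 0.44 and CYBA at 0.33 ± 0.39. Haem and iron handling had 3 of 7 higher (median -0.05). GLO1, CYBB and CYBA were named after their values were seen.

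Markers of blood cell types differed in level between the same arrays. Of 6 measured monocyte markers of 10 listed, 2 had a higher mean after cold (median -0.24). Their summed intensity was 4310 to 5589 after cold and 6117 to 8091 before, without overlap. This sum rested mostly on CTSS, a lysosomal protease, which was at 11.2 to 12.6, while the other markers reached at most 9.77. It is thus not a measure of the list as a whole. By single genes, the groups did not overlap in 2 of the 6, against 4.38% of all probe sets. These were CTSS (-0.68 ± 0.30 SE) and MSR1, a scavenger receptor (-0.66 ± 0.28). CD14 (0.20 ± 0.32) and VCAN (0.28 ± 0.43) were the 2 with a higher mean. These genes were named after their values were seen, and 0 of the 6 passed an adjusted p of 0.05 in limma. CTSS and MSR1 were both lowest on after 3 (11.21 and 4.04) and highest on before 5 (12.58 and 5.21). The median deviation of the monocyte markers was 0.37 on after 3, where CTSS and MSR1 went the other way, and 0.58 on before 5. On these 2 arrays HMOX1 and GPX1 were highest, and on the others the median was -0.29 to 0.07. The median deviation of NK and cytotoxic markers was -0.45 on after 2 and -0.60 on before 6, where KEAP1, GPX4 and HMOX2 were lowest. That of the 2 platelet genes was -0.48 and -0.56. Not every NK and cytotoxic marker was low there. GZMB was highest on before 6 (8.66), and KLRK1 and KLRB1 (5.94 and 5.35) were higher there than on any array but after 1. The part of these cell types in the results above was not tested.

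The other marker lists had summed intensities that overlapped between groups. Neutrophil markers had 4 of 6 higher means, with sums of 19268 to 25187 after and 16643 to 25203 before cold. T cell markers had 7 of 12 higher (19957 to 24869 and 17804 to 27649), B cell markers 4 of 5 (5741 to 6901 and 5716 to 6748), and NK and cytotoxic markers 6 of 8 (2323 to 5129 and 2286 to 4240). Red cell genes had 4 of 5 higher (4470 to 5273 and 4005 to 5216), platelet genes 1 of 2 (5550 to 6543 and 5822 to 7215), and eosinophil, basophil and mast cell markers 0 of 4 (2017 to 4370 and 3912 to 5152). Single genes of these lists did not overlap either, where 4.38% of all probe sets did not. They were 2 of the 5 B cell genes, CXCR5 (0.41 ± 0.25 SE), a chemokine receptor, and POU2AF1 (0.46 ± 0.28), a transcriptional coactivator. The B cell gene MS4A1 went the other way (-0.19 ± 0.30). Among NK and cytotoxic markers it was 1 of 8, the granule protease GZMB (-0.59 ± 0.27), against the direction of most of that list. With limma, 0 genes of any marker list passed an adjusted p of 0.05. No detection calls were used, so which markers lay at background is unknown.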

How the data were processed

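Affymetrix bovine arrays measured biotin-labelled RNA of 6 blood samples, 3 after and 3 before cold. The deposited table gives 1 linear intensity per probe set and array, normalized by the authors. GCOS and RMA are named without versions per the submitters' processing notes, and a genome build or filter is not given in the sources used here. Intensities were taken to log2 with no pseudocount, filter or further normalization. Each of the 12763 probe sets was compared between groups with limma 3.58.1 in R 4.3.3 (linear model, moderated variance, no block, two-sided, Benjamini-Hochberg over all probe sets, threshold 0.05). Errors of a difference are the model's standard errors, and the number of arrays limits the precision. Scripts had been tested on simulated data. All 49 genes had an identifier that matched the RefSeq gene table of assembly ARS-UCD2.0, with 0 symbols changed.

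Array values are given for the 10 genes with the smallest unadjusted p, the gene with the smallest in each of 14 roles, and 16 measured textbook members of 20 listed, 27 genes in all, and for 4 more chosen after their values were seen (GSTO1, GSTM3, GSTT1 and TXNDC11). Members and lists were chosen with earlier results of these data known. Alternatives were filters on dim probe sets, a variance trend, array weights, 3 normalizations, leaving out each array, matchings as a block and averaging the probe sets of each gene.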

Additional observations from a re-analysis of the deposited data

How the results depend on the processing

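With limma, 0 probe sets and 0 of the 49 genes passed an adjusted p of 0.05 in each of the 22 alternatives. The 0 genes at an unadjusted p under 0.05 became 1 with array weights (TXNDC12, against 5.19% of all probe sets). Those weights ran from 0.0019 on after 1 to 30.7 on before 4, in effect fewer arrays. The count was 2 with the block for matching 1-4, 2-6, 3-5 (TXNDC12 and NFE2L2, against 9.15%). Without after 2 and before 6 together the count was 2 (TXNDC12 and MGST2, against 9.67%), genes whose overlap rested on before 6. On leaving out each array it was 0 to 1 (1, NFE2L2, without after 2, against 14.0%). The 28 genes with a higher mean became 17 to 32 on leaving out each array, and the median of 0.055 became -0.089 to 0.14, the lowest of both without before 6. The 2 genes without overlap became 0 without the dimmest 50% (against 4.20% of the probe sets kept) and 1 with median centring (5.03%). They became 0 with quantile and cyclic loess normalization (5.12% each). Without after 3 and before 5 there were 5 (11.4%), and without after 2 and before 6 there were 18 (45.2%). On leaving out each array there were 3 to 11 (6.21% to 39.9%), with 11 without after 2 (39.9%) and 9 without before 6 (10.3%). Fewer arrays make a lack of overlap more common (39.9% of all probe sets without after 2), and filters leave fewer genes. The cause of the other shifts was not tested. Leaving out the 2 pairs of arrays was chosen after the data were seen. No paired analysis by label was possible because the labels' numbers are not shared between groups.

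Of 1064 gene values under alternatives 85 had the opposite direction, none past the threshold, and 14 genes kept theirs throughout. Those reversed with array weights (15 genes), a normalization, the mean of probe sets or a pair of arrays left out had adjusted p of 1.00, except 0.954, 0.979, 0.993, 0.906, 0.998, 0.999 and 0.997. On leaving out each array, 30 genes reversed at least once, with adjusted p of 0.781 to 1.00 where reversed. Over all 6 such fits, reversed or not, their adjusted p reached 1.00 and was lowest at 0.404 for GSTT1, 0.414 for HMOX2, 0.431 for GSTA4, 0.445 for GPX4, 0.453 for TXNDC17, 0.475 for MSRA, 0.499 for TXN2, 0.526 for KEAP1, 0.532 for GLRX5, 0.589 for GSS, 0.589 for HMOX1, 0.601 for SOD2, 0.609 for GSTK1, 0.619 for CAT, 0.626 for MT2A, 0.633 for MGST3, 0.666 for SOD1, 0.699 for GSTM3, 0.727 for TXN, 0.741 for NQO2, 0.781 for GSTO1, 0.783 for GPX7, 0.823 for GPX1, 0.838 for MGST1, 0.881 for GLRX3, 0.906 for PRDX6, 0.906 for GSR, 0.909 for TXNL4A, 0.927 for MSRB2 and 0.977 for FTL.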

Other observations

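GSTO1 shared its low arrays with MHC genes. A search made after its values were seen took the probe sets with every other array at least 2 log2 units above both arrays of a pair. For after 3 and before 5 there were 11 of 12763: GSTO1, 7 probe sets of BOLA-DQA1, BOLA-DQA2 and BOLA-DQB1 (bovine MHC class II genes), 2 that the annotation ties to BOLA-N and JSP.1 together (MHC class I) and 1 without a symbol. The log2 intensity of one BOLA-DQA2 probe set was 3.29 on the after 3 array, 4.45 on the before 5 array and 12.1 to 12.6 on the rest. The unnamed probe set was at 4.59 and 4.72 there and between 7.08 and 7.49 elsewhere. The same search gave 5 probe sets for after 1 and before 4, 5 for after 2 and before 6, and 0 for each of the other 12 pairs of arrays. In the opposite direction, with both arrays of a pair above all others by the same gap, there were 2 for after 3 and before 5, 1 for after 2 and before 6 and 0 for the rest.

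Of the 9 genes with several probe sets, the sign of the difference was shared by all probe sets in 5 and not in 4, which were GLRX3, GPX1, GSTK1 and TXNL1. The dimmest probe set of PRDX6 ranged by 2.31 over the 6 arrays, from 3.67 on after 3 to 5.98 on after 2 and before 6, where the chosen one ranged by 0.53.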
